A study of Homo sapiens with 6 samples.

Results

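The nuclear genes for the machinery that carries proteins into mitochondria were examined in NCI-H660 cells treated with pyrvinium pamoate (PP). The group took in every gene of the deposited expression table whose symbol begins with *TIMM* or *TOMM*, and in addition *PAM16*, *DNAJC19*, *GRPEL1*, *GRPEL2*, *PMPCA*, *PMPCB*, *SAMM50*, *MTX1* and *MTX2*. It held 35 of the 17177 genes in the table. The rule used names only and no measured value, but the group was chosen with earlier results of these data known.

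NCI-H660 is an established human cell line derived from neuroendocrine prostate cancer (NEPC), and the labels give its genotype as WT. Cells were given PP, a cationic dye that has long been used against pinworm, or PBS as the control, and RNA was sequenced on day 3 from 3 libraries per treatment. The concentration of PP used for these libraries was not found in the sources used here. A figure legend of the study calls the samples independent, but its methods and legends differ on how many there were per group, and the labels name no separate cultures. The spread between the 3 libraries of a group may therefore be technical in part, and the p-values measure only that spread.

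Almost all mitochondrial proteins are made in the cytosol and imported. The translocase of the outer membrane (TOM) takes them in. From there the small TIM chaperones and the TIM22 complex handle carrier proteins, the sorting and assembly machinery inserts barrel proteins into the outer membrane, and the TIM23 channel with its ATP-driven motor pulls proteins with a presequence into the matrix, where a peptidase removes the presequence.

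Values were deposited as FPKM, the fragments per kilobase of gene and scaled to the total of the library. Whole counts recovered from these values summed to between 29064253 and 32481171 per library. The neuroendocrine label was checked first: 7 neuroendocrine markers lay between 14.8 and 581.0 FPKM over the 6 libraries and 3 epithelial markers between 264 and 626 FPKM. *PTPRC*, *PECAM1*, *COL1A1* and *COL3A1*, markers of leukocytes, endothelium and fibroblasts, did not pass 4.29 FPKM in any library.

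The import genes went both ways with PP. The motor genes *TIMM44*, *GRPEL2* and *DNAJC19* and the sorting and assembly genes were higher, as were *TIMM9*, *TIMM23*, *TIMM23B*, *TOMM20*, *TOMM70* and *TIMMDC1*. The small TOM subunits, *TIMM8B*, *TIMM13*, *TIMM17B* and *PMPCA* were lower. Of the 35 genes, 33 had a mean of at least 1 FPKM over the 6 libraries and entered the limma fit of log2(FPKM + 1) over 11726 genes. After Benjamini-Hochberg adjustment over all of those genes (adjusted p under 0.05), 12 import genes were higher with PP, 7 were lower and 14 did not pass. The same test called 72.5% of all genes, 38.1% higher and 34.4% lower, so the 57.6% called among the import genes was no larger a share than the background. The PP and PBS libraries did not overlap for 18 of the 33 import genes (12 higher, 6 lower with PP) and for 75% of all genes (39.5% higher, 35.5% lower).

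The changes were moderate in size. No import gene passed the cutoff named in the methods (a change past 1 in size on the log2 scale at an unadjusted P under 0.001), which 2.24% of all genes passed upwards and 2.93% downwards. A log2 fold change of at least 0.5 with an adjusted p under 0.05 was found for 4 import genes upwards and 0 downwards, against 11.3% and 12.5% of all genes. The median log2 fold change of the 33 genes was 0.05, beside 0.02 for all genes. It ran from 0.02 (without PP replicate 1) to 0.10 (without PBS replicate 2) as single libraries were left out. Summed over the 35 genes, the level was 934 ± 18.8 FPKM with PBS and 956 ± 23.3 FPKM with PP (mean ± SD, n = 3 libraries each, as in all values below), and the libraries overlapped. In bulk RNA, fewer cells that carry a transcript and less of it per cell cannot be told apart.

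**Figure D1:**
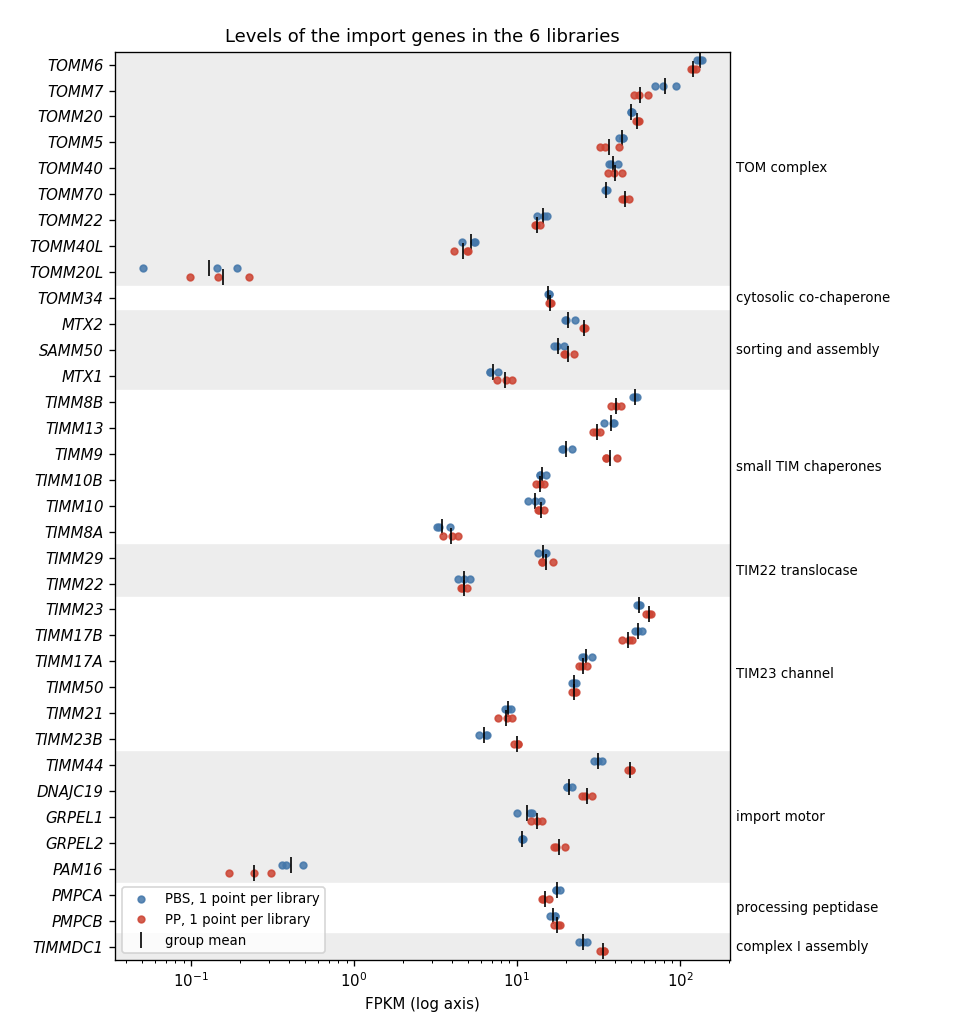
Levels of the 35 import genes in FPKM on a log axis, grouped by role. Each point is 1 library (blue PBS, red PP) and each tick a group mean. *TOMM6* lies highest at 132 FPKM with PBS, and *PAM16* and *TOMM20L* lie below 0.5 FPKM in every library.

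Of the 5 genes of the import motor, 4 were tested, and 3 of them rose and none fell, with a median log2 fold change of 0.49. Of all tested genes 38.1% rose, and no test of the motor genes as a set was made. The untested gene, *PAM16*, was lower in every PP library than in any PBS library. The summed level of the 5 motor genes was 71.5, 75.0 and 78.6 FPKM in the PBS libraries and 107, 105 and 110.0 FPKM in the PP libraries. All 3 PP libraries thus lay well above the PBS libraries.

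*TIMM44* (GRCh38 chr19:7926718-7943666) encodes the scaffold that holds the motor at the channel exit, and it was the motor gene with the highest level. Its FPKM was 29.7, 31.6 and 33.3 in the PBS libraries and 49.8, 49.9 and 48.1 in the PP libraries. The groups were far apart, and recovered counts were 1698 to 1919 with PBS and 2780 to 2905 with PP. The log2 fold change was 0.63 (SE 0.045, 95% interval 0.53 to 0.73, adjusted p = 7.27e-07). Its upstream sequence is printed here as the window of a motor gene that rose. The 250 bases before its start in RefSeq (GRCh38.p14, chr19:7943667-7943916, minus strand, 5′ to 3′) held 1 CCAAT element, in capitals, at 116 to 112 bases before the start. On either strand, CCAAT was in 33% of all such windows in RefSeq. Among the import genes with a window, it was found for 3 of 12 that rose, 1 of 5 that fell and 7 of 13 that did not pass. The windows of *GRPEL2* and *DNAJC19* held no CCAAT.
TIMM44: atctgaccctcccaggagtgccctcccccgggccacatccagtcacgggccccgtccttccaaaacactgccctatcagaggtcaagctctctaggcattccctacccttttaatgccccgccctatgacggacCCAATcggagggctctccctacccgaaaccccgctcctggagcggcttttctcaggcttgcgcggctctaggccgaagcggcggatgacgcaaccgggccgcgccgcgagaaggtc

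*GRPEL2* and *GRPEL1* encode the nucleotide exchange factors of the mitochondrial HSP70. The FPKM of *GRPEL2* was 10.9, 10.7 and 10.7 in the PBS libraries and 16.99, 17.5 and 19.6 in the PP libraries. Every PP library was above every PBS library, and the PBS libraries were nearly identical. The log2 fold change was 0.69 (SE 0.056, 95% interval 0.57 to 0.81, adjusted p = 1.63e-06). Its partner *GRPEL1* measured 9.99, 12.1 and 12.4 FPKM with PBS and 14.1, 12.2 and 13.3 FPKM with PP. One PP library lay within the PBS range, and the log2 fold change of 0.19 did not pass (95% interval 0.01 to 0.37, adjusted p = 0.0537).

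The level of *DNAJC19*, a J-domain protein of the inner membrane, was 20.8 ± 0.88 FPKM with PBS and 26.8 ± 1.86 FPKM with PP. Its log2 fold change was 0.35 (SE 0.055, adjusted p = 2.19e-04), without overlap. *PAM16*, which regulates the J-domain proteins of the motor, was the lowest motor gene and was not tested. Its FPKM was 0.485, 0.384 and 0.360 with PBS and 0.244, 0.311 and 0.172 with PP. These values rest on 6 to 8 recovered counts with PBS and 3 to 5 with PP, and 22.4% of the exon bases of *PAM16* are shared with the read-through gene *CORO7-PAM16* on the same strand.

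The TIM23 channel itself moved little as a whole. Of 6 genes 2 rose, 1 fell and 3 did not pass, so that 50% were called, beside 72.5% of all tested genes. The summed level of the 6 channel genes was 176 ± 1.65 FPKM with PBS and 178 ± 3.04 FPKM with PP. *TIMM23* encodes the pore subunit and had the highest level of this set. Its FPKM was 57.0, 55.8 and 54.9 with PBS and 61.6, 64.9 and 66.3 with PP. The groups did not overlap, and the log2 fold change was 0.20 (SE 0.038, adjusted p = 9.31e-04).

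*TIMM23B*, a near-identical copy of *TIMM23* on chromosome 10, had the lowest level of the set and a larger fold change. It measured 6.48, 6.56 and 5.81 FPKM with PBS and 10.2, 9.64 and 10.1 FPKM with PP. The PP libraries were all higher, with a log2 fold change of 0.59 (SE 0.056, 95% interval 0.47 to 0.72, adjusted p = 5.53e-06). The listed 638-base transcript of *TIMM23B* is identical to *TIMM23* over all 638 bases, so how reads were divided between the copies is uncertain and the values of both genes carry that limit. The copies also share their upstream sequence, which is shown to make the likeness visible. Over the 250 bases before each start (RefSeq, GRCh38.p14, plus strand, *TIMM23* at chr10:45972239-45972488 and *TIMM23B* at chr10:49941803-49942052) 240 bases were identical and 4 differed, in capitals, with the windows offset by a few bases at their ends.
TIMM23: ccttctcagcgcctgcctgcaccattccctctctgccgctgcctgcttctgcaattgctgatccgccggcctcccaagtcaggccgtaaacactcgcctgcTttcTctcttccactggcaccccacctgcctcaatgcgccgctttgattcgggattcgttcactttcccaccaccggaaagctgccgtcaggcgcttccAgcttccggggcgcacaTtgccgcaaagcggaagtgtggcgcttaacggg
TIMM23B: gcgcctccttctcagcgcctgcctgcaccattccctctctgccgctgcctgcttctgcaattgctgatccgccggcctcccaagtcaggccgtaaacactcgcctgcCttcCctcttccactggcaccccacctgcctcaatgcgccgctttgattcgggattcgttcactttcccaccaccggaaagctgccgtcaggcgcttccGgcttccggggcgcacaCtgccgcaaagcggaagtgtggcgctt

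Both forms of the other channel subunit were flat or lower. *TIMM17B* was 55.1, 58.5 and 53.0 FPKM with PBS and 50.8, 48.4 and 43.9 FPKM with PP. It fell without overlap (log2 fold change -0.22, SE 0.056, adjusted p = 0.0055), and 15.5% of its exon bases overlap *PQBP1* on the opposite strand. *TIMM17A* was 25.2, 25.7 and 28.9 FPKM with PBS and 26.8, 24.1 and 25.1 FPKM with PP. The libraries overlapped, and its log2 fold change of -0.07 did not pass (95% interval -0.20 to 0.06, adjusted p = 0.306). The receptor gene *TIMM50* (22.4 ± 0.62 and 22.5 ± 0.78 FPKM with PBS and PP) and *TIMM21*, whose product links the channel to the respiratory chain (8.79 ± 0.37 and 8.55 ± 0.88 FPKM), did not pass, with 95% intervals of -0.09 to 0.10 and -0.19 to 0.12 for the log2 fold change.

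**Figure D2:**
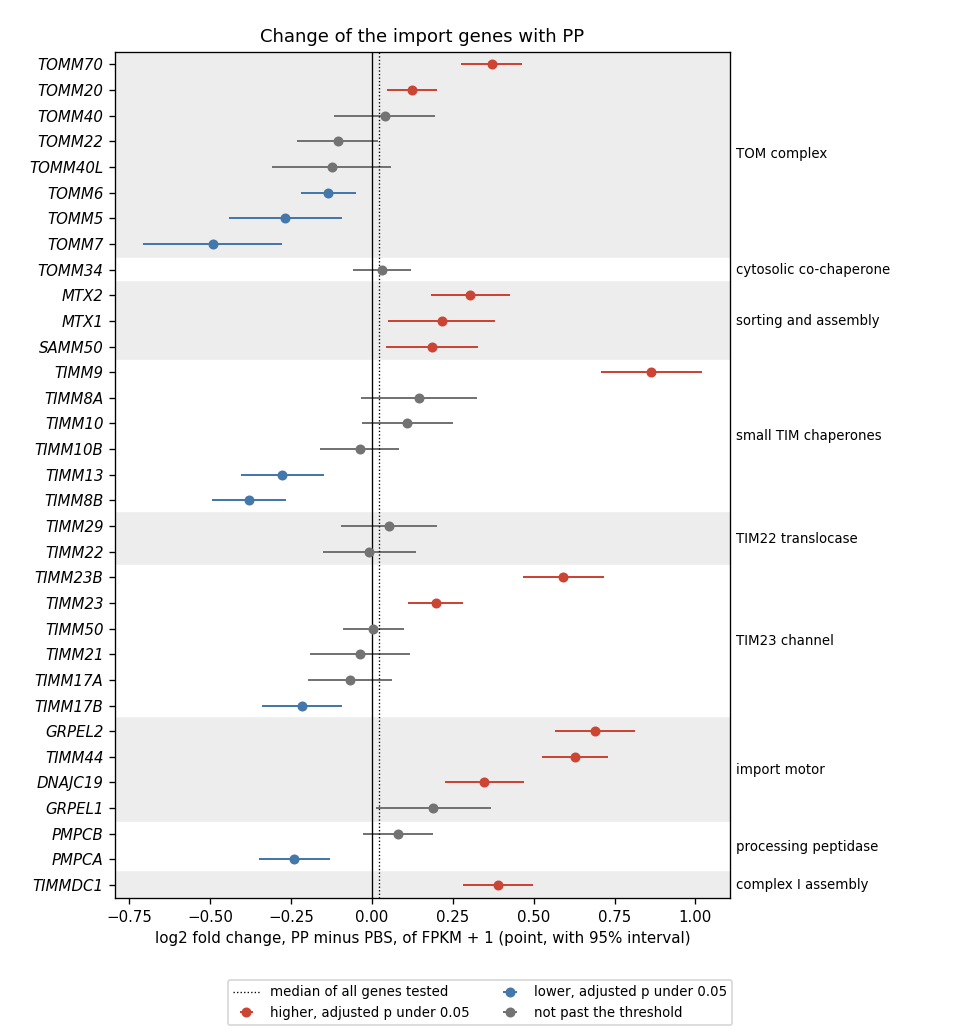
Log2 fold change of FPKM + 1 (PP minus PBS) of the 33 tested import genes with 95% intervals from the limma fit, grouped by role. Red genes were higher and blue genes lower at an adjusted p under 0.05, grey genes did not pass, and the dotted line marks the median of all tested genes at 0.02; the changes run from -0.49 for *TOMM7* to 0.86 for *TIMM9*.

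The small TIM genes encode chaperones of the intermembrane space that work as hexamers, TIMM9 with TIMM10 and TIMM8 with TIMM13. They did not move together: 1 of 6 rose, 2 fell and 3 did not pass, with 50% called beside 72.5% of all tested genes. Their summed level was 141 ± 3.44 FPKM with PBS and 140.4 ± 1.84 FPKM with PP.

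*TIMM9* (GRCh38 chr14:58408494-58427531) showed the highest log2 fold change of the 33 tested genes. It measured 21.8, 19.1 and 18.9 FPKM with PBS and 35.4, 35.1 and 41.0 FPKM with PP. All PP libraries were far above the PBS libraries, and the log2 fold change was 0.86 (SE 0.070, 95% interval 0.71 to 1.02, adjusted p = 1.63e-06). Recovered counts of *TIMM9* were 702 to 847 with PBS and 1329 to 1683 with PP. Of its exon bases, 12.3% overlap *TOMM20L* and 9.9% overlap *KIAA0586*, both on the opposite strand. *TOMM20L* had no more than 5 recovered counts in any library, and 28.6% of its own exon bases lie under *TIMM9*. Whether counting used the strand was not given in the sources used here, and the part of *TOMM20L* or *KIAA0586* reads was not tested.

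*TIMM10*, whose product is the partner of TIMM9 in the hexamer, measured 11.7, 12.9 and 14.1 FPKM with PBS and 13.7, 14.7 and 13.6 FPKM with PP. The groups overlapped, and its log2 fold change of 0.11 did not pass (95% interval -0.03 to 0.25, adjusted p = 0.146). *TIMM10B*, a subunit that ties the hexamer to the TIM22 complex, measured 15.0, 13.8 and 13.9 FPKM with PBS and 13.1, 13.8 and 14.7 FPKM with PP. It overlapped fully, with a log2 fold change of -0.04 (95% interval -0.16 to 0.08, adjusted p = 0.549).

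The other hexamer fell in both of its abundant subunits. *TIMM8B*, the highest of the small TIM genes, measured 51.3, 54.9 and 53.4 FPKM with PBS and 43.5, 40.7 and 37.8 FPKM with PP. The PP libraries were all lower (log2 fold change -0.38, SE 0.052, adjusted p = 7.77e-05), and 30.1% of its exon bases overlap *NKAPD1* on the opposite strand. *TIMM13* was 37.6 ± 2.90 FPKM with PBS and 30.8 ± 1.36 FPKM with PP. It fell without overlap by a log2 fold change of -0.28 (SE 0.057, adjusted p = 0.00141), with 20.1% of its exon bases shared with *TMPRSS9* on the opposite strand. *TIMM8A*, the gene of deafness-dystonia syndrome, was the lowest small TIM gene, at 3.25, 3.30 and 3.87 FPKM with PBS and 4.33, 3.50 and 4.02 FPKM with PP. The libraries overlapped and its log2 fold change of 0.14 did not pass (95% interval -0.03 to 0.32, adjusted p = 0.13).

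The TIM22 translocase, which inserts carrier proteins into the inner membrane, showed no call in its 2 genes. Of all tested genes 72.5% were called, and 2 genes are too few to compare with that share. *TIMM22* measured 4.74, 5.12 and 4.37 FPKM with PBS and 4.63, 4.94 and 4.55 FPKM with PP (95% interval of the log2 fold change -0.15 to 0.14). *TIMM29* measured 13.5, 14.8 and 15.1 FPKM with PBS and 16.7, 14.2 and 14.3 FPKM with PP (95% interval -0.10 to 0.20). Both genes overlapped between the groups, whereas 75% of all tested genes did not.

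In the TOM complex the receptor genes *TOMM70* and *TOMM20* and the small subunit genes went different ways. Of 8 tested genes, 2 rose, 3 fell and 3 did not pass. The 62.5% called was no larger a share than the 72.5% of all tested genes. The summed level of the 9 genes was 392, 397 and 415 FPKM with PBS and 389, 355 and 375 FPKM with PP, with PP replicate 1 just below the lowest PBS library. *TOMM70*, the receptor for carrier proteins and their chaperones, rose from 35.4 ± 0.52 to 46.0 ± 2.29 FPKM (log2 fold change 0.37, SE 0.042, adjusted p = 2.25e-05). *TOMM20*, the presequence receptor, rose less, from 50.3 ± 0.72 to 54.9 ± 1.28 FPKM (log2 fold change 0.12, SE 0.035, adjusted p = 0.00856). Neither *TOMM70* nor *TOMM20* overlapped between the groups. The central receptor gene *TOMM22* did not rise with them: its log2 fold change was -0.11 and did not pass (adjusted p = 0.114, groups overlapping).

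The 3 small subunits that surround the pore all fell. Of all tested genes 34.4% fell, and of all tested genes with up to 120 codons, as these 3 are, 54.1% fell. No test of the small subunits as a set was made. *TOMM7*, whose product also stabilises PINK1 on the outer membrane, showed the lowest log2 fold change of the 33 genes and is given in full for that reason, chosen after its values were seen. It measured 70.8, 78.4 and 94.2 FPKM with PBS and 63.6, 52.2 and 55.8 FPKM with PP. The PBS libraries varied widely but stayed above the PP libraries, and the log2 fold change was -0.49 (SE 0.097, 95% interval -0.71 to -0.28, adjusted p = 0.001). *TOMM6*, the highest import gene, measured 136, 128 and 133 FPKM with PBS and 120, 116 and 125 FPKM with PP. It fell without overlap (log2 fold change -0.14, SE 0.038, adjusted p = 0.0087), but all of its exon bases also belong to a read-through gene on the same strand, so how its reads were assigned is uncertain. *TOMM5* fell from 43.9 ± 1.59 to 36.5 ± 5.01 FPKM (log2 fold change -0.27, SE 0.079, adjusted p = 0.0108), with PP replicate 1 at 42.1 FPKM inside the PBS range. Other protein-coding genes on the same strand share 14.4% and 9.4% of its exon bases.

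*TOMM7* and *TIMM9* were the 2 import genes whose upstream 250 bases held the letters CGCATGCG, the core of the site of the transcription factor NRF1, on either strand. This core was in 1.86% of the 27305 RefSeq promoter windows, and 32 of the 35 import genes had a window. The genes changed in opposite directions. Their windows are printed for this comparison (GRCh38.p14, both genes on the minus strand, 5′ to 3′, core in capitals), *TIMM9* at chr14:58427532-58427781 with the core at 129 to 122 bases before the start and *TOMM7* at chr7:22822850-22823099 with the core at 124 to 117 bases before the start.
TIMM9: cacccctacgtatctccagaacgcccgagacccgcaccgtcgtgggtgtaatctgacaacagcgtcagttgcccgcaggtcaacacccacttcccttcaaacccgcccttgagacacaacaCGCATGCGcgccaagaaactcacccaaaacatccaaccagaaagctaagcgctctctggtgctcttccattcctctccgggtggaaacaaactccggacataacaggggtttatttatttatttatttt
TOMM7: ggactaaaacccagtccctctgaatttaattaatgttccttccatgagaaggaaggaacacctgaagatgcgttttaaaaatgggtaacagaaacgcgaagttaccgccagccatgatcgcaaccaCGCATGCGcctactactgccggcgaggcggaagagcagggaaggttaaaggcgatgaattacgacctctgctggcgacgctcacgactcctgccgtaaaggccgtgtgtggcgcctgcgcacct

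The other letters were searched on both strands of the same windows. CACGTG, the E-box, was in the window of *TOMM20* and in 6.49% of all windows. TGATGNAA, the element of C/EBP and ATF factors, was in the windows of *PMPCB* and *TIMM22*, which did not pass the test, and in 3.19% of all windows. CCAAT was in 11 of the 32 windows (34.4%), beside 33% of all windows: it was found for 3 of the 12 genes that rose, 1 of the 5 with a window that fell and 7 of the 13 that did not pass. The windows of *TIMM17B*, the gene with CCAAT that fell, and of *DNAJC19*, without any of these letters, lie before a start inside the listed gene and so hold gene bases. A match is a description of the letters and not of a bound site.

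The remaining TOM genes did not pass. The pore gene *TOMM40* measured 36.7, 41.9 and 37.6 FPKM with PBS and 44, 39.3 and 36.3 FPKM with PP (95% interval of the log2 fold change -0.12 to 0.19, adjusted p = 0.631). Its homologue *TOMM40L* measured 5.42, 4.59 and 5.56 FPKM with PBS and 4.996, 4.12 and 4.91 FPKM with PP (95% interval -0.31 to 0.06, adjusted p = 0.195). The central receptor gene *TOMM22* was 14.4 ± 0.96 FPKM with PBS and 13.3 ± 0.57 FPKM with PP (log2 fold change -0.11, adjusted p = 0.114). All 3 genes overlapped between the groups. *TOMM20L* was the lowest TOM gene, at 0.144, 0.0508 and 0.191 FPKM with PBS and 0.146, 0.0986 and 0.227 FPKM with PP, and was not tested. *TOMM34*, a cytosolic co-chaperone of import, was at 15.6 ± 0.14 and 16.0 ± 0.26 FPKM and did not pass, although the lowest PP library was just above the highest PBS library (95% interval of the log2 fold change -0.06 to 0.12, adjusted p = 0.507).

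The sorting and assembly genes, which serve barrel proteins of the outer membrane, were all called higher, with a median log2 fold change of 0.22. The same call was made for 38.1% of all tested genes, and no test of the sorting and assembly genes as a set was made. The metaxin gene *MTX2*, the highest of them with PBS, measured 19.6, 19.9 and 22.6 FPKM with PBS and 26.3, 25.3 and 25.7 FPKM with PP. It rose without overlap (log2 fold change 0.30, SE 0.054, adjusted p = 5.42e-04). *MTX1*, the lowest, measured 7.64, 6.85 and 6.88 FPKM with PBS and 9.32, 8.53 and 7.50 FPKM with PP. The groups overlapped, and the log2 fold change was 0.22 (SE 0.074, adjusted p = 0.024). *SAMM50*, the barrel of the machinery, was 18.0 ± 1.32 FPKM with PBS and 20.6 ± 1.54 FPKM with PP (log2 fold change 0.19, SE 0.064, adjusted p = 0.0235). The calls of *MTX1* and *SAMM50* were not stable: without a filter on low values their adjusted p was 0.0679 and 0.0637, and over the libraries left out in turn and the other settings it reached 0.0908 and 0.0886.

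The processing peptidase cuts presequences as a dimer. The alpha subunit gene *PMPCA* measured 17.4, 18.3 and 17.3 FPKM with PBS and 14.4, 15.7 and 14.2 FPKM with PP. It fell without overlap (log2 fold change -0.24, SE 0.049, adjusted p = 0.00132). The gene of the catalytic beta subunit, *PMPCB*, measured 17.04, 17.1 and 16.0 FPKM with PBS and 16.8, 17.9 and 18.5 FPKM with PP. It overlapped between the groups and did not pass (95% interval -0.03 to 0.19, adjusted p = 0.163). *TIMMDC1*, which shares the symbol but encodes an assembly factor of respiratory complex I, rose from 25.5 ± 1.42 to 33.7 ± 1.21 FPKM (log2 fold change 0.39, SE 0.048, adjusted p = 4.17e-05), and 29.4% of its exon bases overlap *CD80* on the opposite strand.

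Several import genes come as homologues or paired subunits, and the balance within 8 such pairs was compared as the log2 ratio of FPKM + 1 of the first gene over the second. The libraries of the 2 treatments did not overlap for 4 of the 8 pairs. Taken as single genes, 75% of all tested genes did not overlap, and no such share was made for other pairs. The ratio of *GRPEL1* to *GRPEL2* was lower by 0.50 with PP, from a mean of 0.08 ± 0.17 to -0.42 ± 0.15, and *GRPEL2* made up 46.2% to 52.1% of the summed FPKM of the pair with PBS and 54.5% to 59.5% with PP. The ratio of *TIMM8A* to *TIMM8B* was higher by 0.52, and *TIMM8A* made up 5.68% to 6.76% of its pair with PBS and 7.91% to 9.61% with PP. *TIMM23B* made up 9.58% to 10.5% of its pair with PBS and 12.9% to 14.2% with PP, with the limit on shared reads given above. *PMPCB* made up 48.1% to 49.5% of its pair with PBS and 53.3% to 56.5% with PP.

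For each of these 4 pairs the two-sided exact permutation test gave p = 0.1, the smallest that 3 against 3 libraries allow, and 0.2 after adjustment over the 8 pairs, so no pair could pass. For *TIMM17A* with *TIMM17B*, *TOMM40* with *TOMM40L* and *TIMM10* with *TIMM10B* the exact permutation p was 0.3 (adjusted 0.343), with ratio differences of 0.15, 0.16 and 0.15. For *MTX1* with *MTX2* it was 0.5 (adjusted 0.5), with a difference of -0.09. These 4 pairs overlapped between the treatments.

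The import genes that fell were mostly short. This comparison, and the limit of 120 codons, were chosen after the values were seen. The 7 genes that fell had a median coding length of 83 codons, the 12 that rose 244 codons and the 14 that did not pass 232 codons. Of the 10 genes with up to 120 codons, 5 fell (*TOMM5*, *TOMM7*, *TOMM6*, *TIMM8B* and *TIMM13*), 2 rose (*TIMM9* and *DNAJC19*) and 3 did not pass, whereas of the 23 longer genes 2 fell (*TIMM17B* and *PMPCA*), 10 rose and 11 did not pass. All genes showed the like: 54.1% of the 429 tested genes with up to 120 codons fell and 19.1% rose, against 33.6% and 38.8% of the 11194 longer genes. The share of short import genes that fell, 50%, was therefore near that of all short genes and is no result about the import genes. Across genes, Spearman's rho between coding length and the log2 fold change was 0.34 over the 33 import genes and 0.08 over all 11623 genes with a length, as a description of genes that share the same 6 libraries.

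Other genes that work with these complexes also went both ways. From a list of 21 further genes of mitochondrial import, folding and presequence handling, 19 were tested, 9 rose, 5 fell and 5 did not pass, with a median log2 fold change of 0.07. The 73.7% called (47.4% higher, 26.3% lower) lay near the background of 72.5% (38.1% higher, 34.4% lower) and is no result about the list. The highest were *DNAJA3*, a matrix J-domain co-chaperone (39.8 ± 1.22 FPKM with PBS and 76.5 ± 3.59 FPKM with PP, log2 fold change 0.92, adjusted p = 2.83e-08), *HSPA9*, the mitochondrial HSP70 that drives the motor (195 ± 4.18 and 340.2 ± 3.65 FPKM, 0.80, adjusted p = 6.04e-09), and *GFER*, the sulfhydryl oxidase of the intermembrane space relay (16.7 ± 0.57 and 27.1 ± 0.48 FPKM, 0.67, adjusted p = 2.44e-07).

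The lowest of that list were *ROMO1*, a small inner membrane protein of the TIM23 channel (101 ± 9.21 FPKM with PBS and 65.4 ± 8.12 FPKM with PP, log2 fold change -0.62, adjusted p = 8.44e-05), *HSPE1*, the co-chaperonin (29.1 ± 1.93 and 19.1 ± 2.83 FPKM, -0.59, adjusted p = 1.66e-04), and *MTCH2*, an outer membrane insertase (24.4 ± 1.30 and 19.5 ± 0.81 FPKM, -0.31, adjusted p = 2.79e-04).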

How the data were processed

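RNA-seq of NCI-H660 cells on day 3 was used, 3 libraries with PBS and 3 with PP, grouped by the sample titles. The authors deposited FPKM values of 17177 gene symbols. The submitters' processing notes name fastp, HISAT2, HTSeq and GRCh38, whereas the methods of the paper name hg19, Bowtie, RSEM, Cufflinks and HTSeq; which of these gave the values is not settled here. The labels name a stranded mRNA kit. The FPKM of each gene were whole multiples of a step, and counts were recovered for 100% of genes (tolerance 0.01 of a count), with totals of 29064253 to 32481171.

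Genes with a mean of at least 1 FPKM were fitted on log2(FPKM + 1) with limma 3.58.1 in R 4.3.3 (lmFit, eBayes with an intensity trend, two-sided, Benjamini-Hochberg adjustment over 11726 genes). The pseudocount of 1 understates changes of low genes. Levels are means ± SD over libraries. Pair ratios were compared by exact permutation in Python 3.11.15, with Benjamini-Hochberg adjustment over the pairs by scipy 1.17.1. The steps were tested on simulated data. The alternatives were a pseudocount of 0.1, filters at 0, 0.1 and 5 FPKM, median-ratio scaling, eBayes without trend, a replicate block, limma-voom on recovered counts and leaving out each library.

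The import genes, their roles, the pairs and the list of further genes were chosen with earlier results of these data known. Any import gene could be named; values per library were given for those with an adjusted p under 0.05 and a log2 fold change of at least 0.5 in size, for both genes of tested pairs and for the highest and lowest of each role. The pairs *TOMM20* with *TOMM20L* and *DNAJC19* with *DNAJC15* were not tested, since 1 gene of each was below the filter. Gene positions and upstream sequences come from RefSeq (GRCh38.p14), of which *GRPEL1*, *TOMM5* and *TIMM8B* had no sequence entry. Only the 250 bases before the listed start were searched. This window lies wholly inside the listed gene for *TIMM17B* and partly inside it for *DNAJC19*. Exon overlap, coding length and transcript identity come from the GENCODE annotation on GRCh37. Reads were not analysed here, and 1 marker result is not reported here.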

Additional observations from a re-analysis of the deposited data

How the results depend on the processing

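Of 459 values of the import genes under the alternatives, 429 kept their direction and their side of the threshold. *MTX1* was no longer called with limma-voom on recovered counts (adjusted p = 0.0543) or without PBS replicate 2, PBS replicate 3, PP replicate 1 or PP replicate 2, and *SAMM50* without PBS replicate 1, PBS replicate 3 or PP replicate 3. *GRPEL1* was called higher with a filter at 5 FPKM (adjusted p = 0.0452), with limma-voom (adjusted p = 0.0242) and without PBS replicate 2, PBS replicate 3 or PP replicate 2. Leaving out PBS replicate 3 also brought *TIMM10* (adjusted p = 0.0338) and *TIMM8A* (0.0497) past the limma threshold, PP replicate 2 *TIMM8A* (0.0434) and PBS replicate 2 *TOMM22* (0.0333). The 7 genes that fell kept that call under every alternative run. With filters at 0.1 FPKM or none, *PAM16* joined them.

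Genes with values near 0 changed sign. *TIMM50* went to -0.02 with median-ratio scaling, which also moved the median log2 fold change of the import genes to 0.0303 and that of all genes to 0.0014. Over the libraries left out in turn, the log2 fold change ran from -0.016 to 0.031 for *TIMM50*, -0.079 to 0.0018 for *TIMM10B*, -0.10 to 0.033 for *TIMM21*, -0.056 to 0.039 for *TIMM22*, -0.018 to 0.089 for *TIMM29* and -0.032 to 0.10 for *TOMM40*, and the median of the import genes from 0.0203 to 0.0955. Of all genes, 263 were past the cutoff of the methods upwards and 344 downwards, against 397 and 559 with limma-voom and 531 downwards with a pseudocount of 0.1. The cause was not tested.

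Same-numbered libraries of both treatments did not deviate together (correlations of -0.21, -0.014 and -0.13). The numbers were not taken as pairs, since the labels name no shared culture, day or batch. With a replicate block 12 import genes were higher and 7 lower, as without it. With 3 libraries per group, no pair ratio could pass an exact test. The level of *PAM16* rests on 3 to 8 counts per library and that of *TOMM20L* on 1 to 5.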
